A study of Mus musculus with 2 samples.

Results

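Gbx2, Tfcp2l1, Klf4, Klf5, Pim1 and Socs3 are genes tied to signalling by the cytokine LIF in mouse embryonic stem cells. Pim2 is a kinase gene described with them as a relative of Pim1. All 7 are among the 886 genes that the authors listed as different between Prdm14 and Flag cells. They were chosen by gene symbol from that list, with both mean levels and the fold of each already known. Since the same comparison also selected the list, their levels are given as a description, with no test. Of the 7, 5 were higher in Prdm14 cells (Gbx2, Tfcp2l1, Klf4, Pim1 and Klf5) and 2 were lower (Pim2 and Socs3). Pim2 had the widest difference, at 21.2-fold lower, while its relative Pim1 was 2.14-fold higher.

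The cells were 46C, mouse embryonic stem cells that carry a fluorescent reporter at the Sox1 locus. All were grown in medium with serum and LIF, so both conditions had the cytokine. The control, titled PB_Flag, expressed the Flag tag, and the other, titled PB_Prdm14, is labelled as expressing Prdm14, a PR-domain regulator of pluripotency; the labels list 1 sample of each. The sources used here give neither the promoter that drove expression nor whether the cells were clones or pools. The table holds the authors' mean TPM (a length-scaled share of all transcripts, set to a fixed total) for each condition, and neither an SD nor the number of values behind a mean. It gives no read counts, so the depth is unknown, and none of the differences below could be set against a spread between replicates. "Higher" and "lower" always mean Prdm14 cells relative to Flag cells, and a fold is the ratio of the authors' means.

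LIF binds a receptor made of Lifr and Il6st, which activates Jak kinases, and these phosphorylate Stat3, which then enters the nucleus and switches on target genes. In mouse embryonic stem cells this pathway holds back differentiation. Klf4, Klf5, Gbx2 and Tfcp2l1 are transcription factors known to act downstream of it in keeping the naive state. Pim kinases are serine/threonine kinases that promote survival and growth and whose activity depends mainly on how much of them is made. Socs3 is made in response to Stat3 and shuts the receptor and its Jak kinases down, which makes it the brake of the pathway.

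The stretches before the start sites are shown for the 3 factors with the widest increases and for Pim1 and Pim2, which went in opposite directions. For Socs3, the site around its one match to the STAT motif is shown. Sequences and start sites are from RefSeq on GRCm38.p6, each ends before the RefSeq start, and bases that GENCODE M21 places in an exon of the gene were left off. They cover chr1:89931180-89931426 on the minus strand for Gbx2, chr1:118627695-118627944 on the plus strand for Tfcp2l1 and chr4:55532476-55532725 on the minus strand for Klf4. They cover chr17:29490535-29490752 on the plus strand for Pim1, chrX:7878056-7878261 on the plus strand for Pim2 and chr11:117969502-117969530 on the minus strand for Socs3. Capitals mark matches to CCNCNCCC, a form of the CACCC and GC boxes that Klf factors bind, in Gbx2, Tfcp2l1, Klf4 and Pim1. They mark the octamer ATGCAAAT, the site of POU factors, in Pim2, and the STAT motif TTCNNNGAA in Socs3, where other matches are left in lower case.
Gbx2: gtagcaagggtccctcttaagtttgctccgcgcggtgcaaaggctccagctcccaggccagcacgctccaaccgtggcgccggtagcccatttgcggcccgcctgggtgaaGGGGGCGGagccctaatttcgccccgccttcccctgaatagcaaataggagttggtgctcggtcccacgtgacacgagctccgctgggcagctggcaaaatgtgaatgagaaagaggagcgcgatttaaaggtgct
Tfcp2l1: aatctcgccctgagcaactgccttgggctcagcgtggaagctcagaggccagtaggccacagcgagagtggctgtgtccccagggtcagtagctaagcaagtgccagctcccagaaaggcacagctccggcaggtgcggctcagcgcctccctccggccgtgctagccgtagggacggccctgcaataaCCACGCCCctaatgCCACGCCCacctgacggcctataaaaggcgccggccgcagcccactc
Klf4: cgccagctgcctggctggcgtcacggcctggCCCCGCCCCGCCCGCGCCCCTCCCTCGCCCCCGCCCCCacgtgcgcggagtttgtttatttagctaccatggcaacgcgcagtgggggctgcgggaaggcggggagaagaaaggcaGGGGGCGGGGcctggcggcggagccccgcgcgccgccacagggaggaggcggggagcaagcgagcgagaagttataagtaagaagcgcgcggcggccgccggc
Pim1: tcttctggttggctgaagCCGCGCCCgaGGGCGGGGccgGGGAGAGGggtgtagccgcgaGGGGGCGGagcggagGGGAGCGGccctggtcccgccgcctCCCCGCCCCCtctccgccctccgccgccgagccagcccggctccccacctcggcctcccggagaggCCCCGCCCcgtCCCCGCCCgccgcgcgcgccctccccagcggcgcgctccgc
Pim2: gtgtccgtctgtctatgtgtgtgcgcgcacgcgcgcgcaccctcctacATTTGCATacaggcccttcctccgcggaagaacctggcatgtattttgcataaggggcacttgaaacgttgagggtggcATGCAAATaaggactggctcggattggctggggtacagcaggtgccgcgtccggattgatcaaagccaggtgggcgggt
Socs3: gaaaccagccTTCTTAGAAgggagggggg

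The labels were checked against the gene they name. Prdm14 was at 3.30 TPM in Flag cells and 399 TPM in Prdm14 cells, 121-fold higher. Gadd45g, which the design text of the series names as the tagged gene, was 6.03-fold lower, so the values go with the sample labels. Of 9 embryonic stem cell markers, 3 are listed (Nanog, Zfp42 and Esrrb), all higher, with a summed level of 433 TPM in Flag cells and 1222 TPM in Prdm14 cells. Of 8 primitive endoderm markers, 2 are listed (Dab2 and Cubn), both lower, with a summed level of 25.3 TPM in Flag cells and 1.67 TPM in Prdm14 cells. Of 6 neural markers, Tubb3 is listed, at 66.0 and 138 TPM, and none of the 7 fibroblast or 5 mesoderm markers is. Of all genes the authors tested, 4.36% are listed, 2.3% higher and 2.06% lower. The markers that are not listed have no value here, so these counts do not describe the marker sets as a whole. No listed marker was at 0. Their part in the differences below was not tested, and in bulk RNA fewer cells of a type and less RNA per cell cannot be told apart.

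The table shows genes that differ at least 2-fold and have a larger mean of at least 5.01 TPM. By the form of the authors' q-values, 20309 genes were tested, so the 886 listed genes are 4.36% of them. The 468 higher genes are 2.3% of those tested and 52.8% of the list, and the 418 lower genes 2.06% and 47.2%. Among higher genes the median fold was 2.56 and among lower genes 3.03. Against these shares, 5 of the 7 genes were higher and 2 lower, a split from which nothing is read, since the same comparison chose them.

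Among the transcription factors, Gbx2 had the widest fold. Gbx2 (ENSMUSG00000034486, chromosome 1, 89927956 to 89931179, minus strand), a homeobox factor that can sustain naive cells when LIF is absent, was at 5.77 TPM in Flag cells and 33.0 TPM in Prdm14 cells. It was 5.72-fold higher (log2 ratio 2.52) and ranked 38 by fold among the 468 higher genes. Of the 7 genes it had the lowest mean in Flag cells, below Socs3, and the fifth highest in Prdm14 cells, above Pim2. Its exons overlap those of D130058E05Rik, a processed transcript on the opposite strand. That gene is listed too, at 1.69 and 11.3 TPM, 6.71-fold higher. Whether the counting used strand is not given in the sources used here, and without strand the reads of the pair cannot be told apart.

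Tfcp2l1 (ENSMUSG00000026380, chromosome 1, 118627945 to 118685168, plus strand), a grainyhead-related factor at the end of the LIF and Stat3 route in naive cells, was at 18.4 TPM in Flag cells and 72.6 TPM in Prdm14 cells. It was 3.95-fold higher, a log2 ratio of 1.98. Klf4 (ENSMUSG00000003032, chromosome 4, 55527143 to 55532466, minus strand), a zinc finger factor known from reprogramming, was at 15.8 and 56.1 TPM. It was 3.56-fold higher, a log2 ratio of 1.83. Tfcp2l1 and Klf4 were neighbours in the order of levels in both conditions, and both had folds above the median of the higher genes. One small nuclear RNA gene on the same strand, Gm23497, overlaps an exon of Tfcp2l1.

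Klf5 (ENSMUSG00000005148, chromosome 14, 99298691 to 99315036, plus strand), a zinc finger factor related to Klf4, was at 86.8 TPM in Flag cells and 174 TPM in Prdm14 cells. It had the smallest fold of the 7 genes, 2.004, and entered the table by a narrow margin: only 5 of the 468 higher genes had a smaller fold. In TPM its gain, 87.2, was the largest of the 5 higher genes, against 54.2 for Tfcp2l1, 40.3 for Klf4 and 27.3 for Gbx2. Klf5 transcripts were 5.50 times as abundant as those of Klf4 in Flag cells and 3.10 times in Prdm14 cells. Together the pair was at 103 TPM in Flag cells and 230.1 TPM in Prdm14 cells, 2.24-fold higher.

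**Figure D1:**
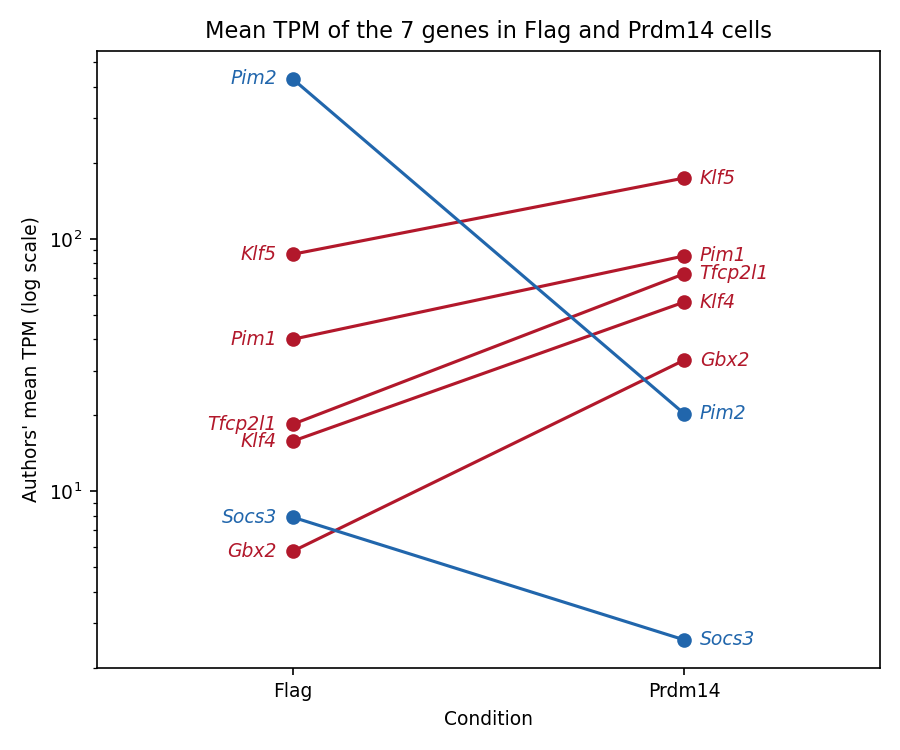
The authors' mean TPM of Gbx2, Tfcp2l1, Klf4, Klf5, Pim1, Pim2 and Socs3 (log axis) in Flag and Prdm14 cells, 1 point per gene and condition, red where higher and blue where lower in Prdm14 cells; the means carry no error. Pim2 crosses from the highest of the 7 levels to below Gbx2, while Klf5 becomes the highest.

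The Pim kinases went in opposite directions. Pim1 (ENSMUSG00000024014, chromosome 17, 29490753 to 29496112, plus strand), a known Stat3 target, was at 40.0 TPM in Flag cells and 85.5 TPM in Prdm14 cells, 2.14-fold higher (log2 ratio 1.10). Its fold lay below the median of the higher genes, at rank 382 of 468. An antisense gene, Gm26885, overlaps exons of Pim1 and is not in the table, so the share of its reads in the Pim1 value is unknown.

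Pim2 (ENSMUSG00000031155, chromosome X, 7878262 to 7883432, plus strand) was at 430.4 TPM in Flag cells and 20.3 TPM in Prdm14 cells. It was 21.2-fold lower, a log2 ratio of -4.41. In Flag cells it was the sixth most abundant of the 886 listed genes, and in Prdm14 cells it ranked 250. The drop of 410.1 TPM was the fourth largest difference in TPM in the table, in either direction. By fold it ranked 23 of the 418 lower genes. The 22 genes with a wider fold, 5 of them at the floor in Prdm14 cells, had a median of 10.6 TPM in Flag cells and none was above 149.8 TPM. Pim2, like Klf4, Klf5 and Socs3, overlaps no other annotated gene.

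The order of the kinases was therefore not the same in both conditions. In Flag cells Pim2 was 10.8 times as abundant as Pim1, and in Prdm14 cells Pim1 was 4.21 times as abundant as Pim2. Summed, Pim1 and Pim2 were at 470.3 TPM in Flag cells and 106 TPM in Prdm14 cells, 4.45-fold lower, because the drop in Pim2 was larger than the gain of 45.5 TPM in Pim1. Pim3, the remaining member of the family, is not in the table and has no value here.

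**Figure D2:**
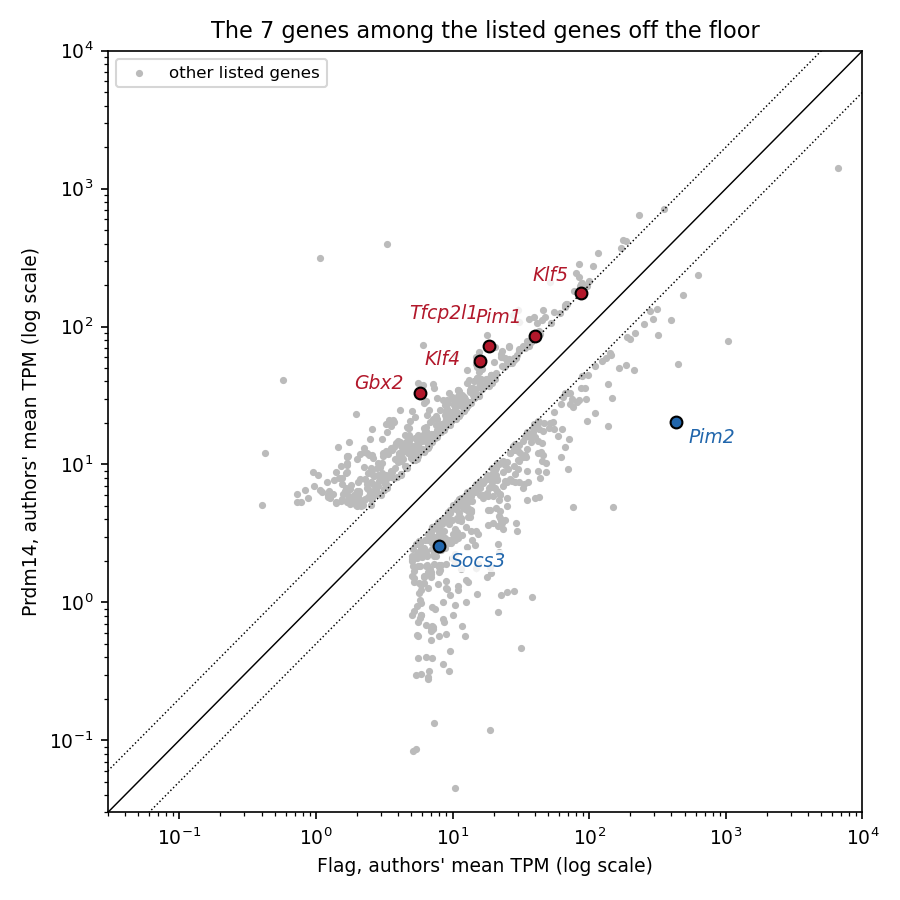
The authors' mean TPM in Flag cells (x, log axis) and in Prdm14 cells (y, log axis) of the listed genes that are above the table's floor of 0.0001 TPM in both conditions, 1 point per gene; the solid line marks equal means and the dotted lines a 2-fold difference. Gm47308, at 21.0 TPM in Flag and 0.0024 TPM in Prdm14 cells, is above the floor but lies outside the axes. Klf5 and Pim1 sit near the dotted line, Gbx2, Tfcp2l1 and Klf4 farther above it, and Pim2 stands apart at 430.4 TPM in Flag and 20.3 TPM in Prdm14 cells.

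Socs3 (ENSMUSG00000053113, chromosome 11, 117966079 to 117970047, minus strand), the feedback inhibitor, was at 7.89 TPM in Flag cells and 2.58 TPM in Prdm14 cells. It was 3.06-fold lower, a log2 ratio of -1.61, close to the median fold of the lower genes. It had the lowest level of the 7 genes in Prdm14 cells. Pim1, another gene known to respond to Stat3, was 5.06 times as abundant as Socs3 in Flag cells and 33.2 times in Prdm14 cells.

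In Flag cells the levels ran from Pim2 through Klf5, Pim1, Tfcp2l1, Klf4 and Socs3 to Gbx2, a span of 74.5-fold. In Prdm14 cells they ran from Klf5 through Pim1, Tfcp2l1, Klf4, Gbx2 and Pim2 to Socs3, a span of 67.5-fold. Klf5, Pim1, Tfcp2l1 and Klf4 kept their order among themselves. No spread is known, so it cannot be said which neighbours in these orders differ beyond their error.

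Of 16 pathway components, from Lif and its receptor to the Jak kinases and Stat factors, 1 (6.25%) was listed, beside 4.36% of all genes tested: Stat5b, a signal transducer related to Stat3, was at 3.20 and 7.47 TPM, 2.33-fold higher. Lifr, Il6st, Jak1 and Stat3 have no value here, and nothing is read from their absence from a table of selected genes. Of 20 known or reported LIF and Stat3 targets, 7 (35.0%) were listed, 6 higher and 1 lower, beside 4.36% listed, 2.3% higher and 2.06% lower of all genes tested. These targets were put together with the listed genes known, so the share is no evidence about them. They leave out Pim2, which was 21.2-fold lower and is counted with the Pim family. Their listed genes had a median log2 ratio of 1.10, beside 1.03 over the whole table. No listed gene has an absolute log2 ratio below 1.00, and 52.8% are higher. The table median therefore falls at the lower edge of the higher genes, and nothing is read from the 2 medians. All but 1 of these 7 listed targets are genes already described. The other is Nr0b1, an orphan nuclear receptor of naive cells on chromosome X, at 60.7 and 125 TPM, 2.06-fold higher.

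The Klf, Pim and grainyhead families had listed genes in both directions. Of all genes tested, 4.36% were listed, 2.3% higher and 2.06% lower. The family and substrate lists were chosen with earlier results of these data known, so nothing is read from their shares. Of 18 Klf genes, 4 were listed, 3 higher and 1 lower. Besides Klf4 and Klf5 they were Klf12, a repressor, at 6.77 and 13.6 TPM (2.01-fold higher), and Klf7, which has known roles in neurons, at 7.64 and 3.67 TPM (2.08-fold lower). The levels of Klf12 and Klf7 were small beside those of Klf5 in both conditions. Of the 6 genes of the Tfcp2 and grainyhead family, 3 were listed. Beside Tfcp2l1, the epithelial factor Grhl2 was at 35.1 and 12.9 TPM, 2.72-fold lower, and its relative Grhl3 was at 9.55 and 20.5 TPM, 2.15-fold higher. Socs3 was the one listed gene of 8 in the SOCS family, and Gbx2 the one of 2 in the Gbx family. Of 12 known substrates of Pim kinases, 1 was listed: Map3k5, a stress-activated kinase, at 4.23 and 10.7 TPM, 2.53-fold higher.

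Leaving out Prdm14 itself, which the cells were made to express, 10 of 13 naive pluripotency factors were listed, all higher, beside 4.36% listed and 2.3% higher of all genes tested. They include Gbx2, Tfcp2l1, Klf4 and Klf5, and the list was put together with its values known. The others ran from Nr0b1 at 2.06-fold through Nr5a2 at 2.52-fold, Esrrb at 2.695-fold, Zfp42 at 2.80-fold and Nanog at 2.94-fold to Tbx3 at 5.98-fold higher. Gbx2 lay next to Tbx3 at the top of that range and Klf5, at 2.004-fold, below all of them.

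**Figure D3:**
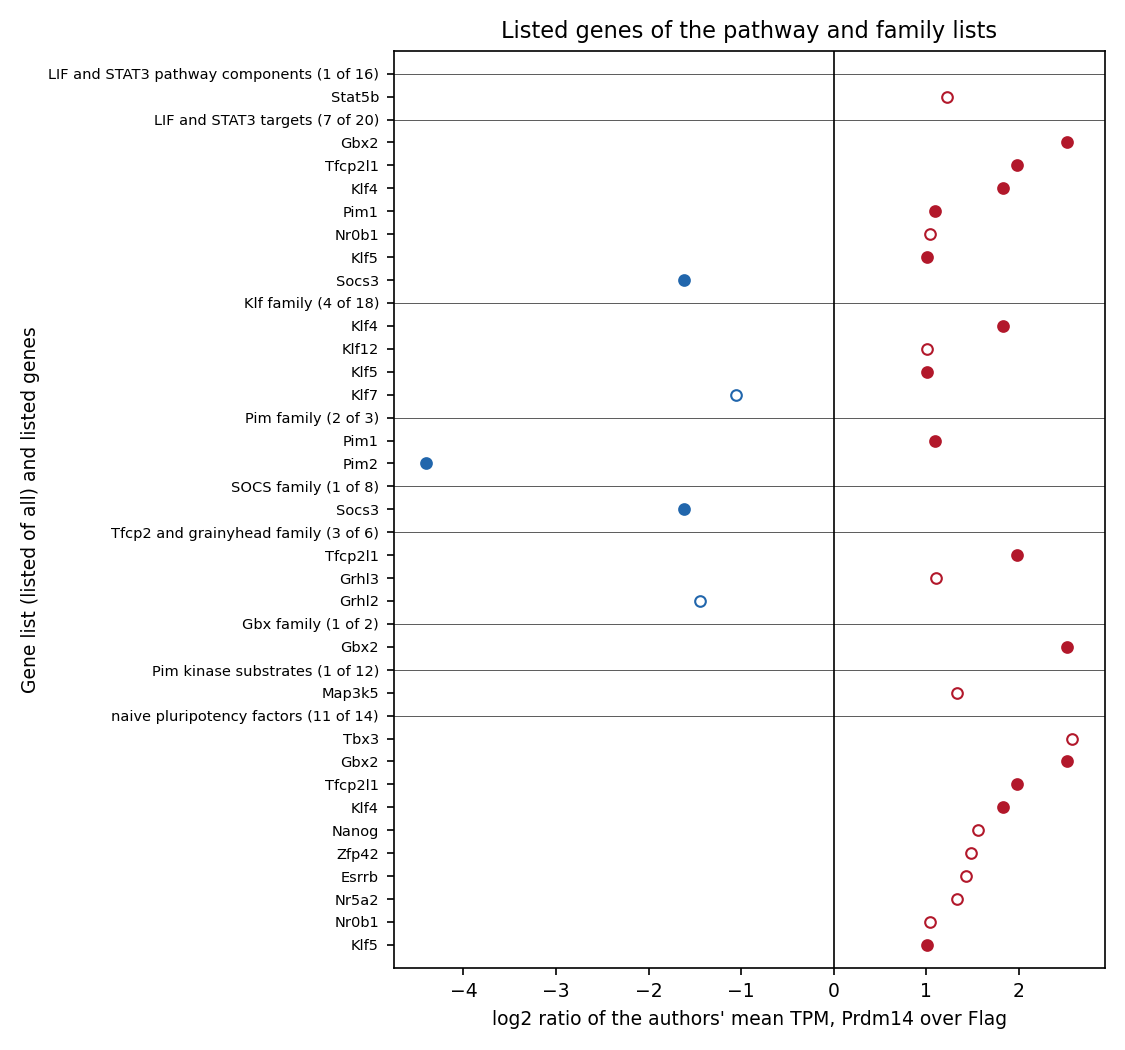
The log2 ratio of the authors' mean TPM (x, Prdm14 over Flag) for each listed gene of the pathway and family lists (y), with the number listed of all genes in each list; filled points are the 7 genes described, open points other list members, red higher and blue lower, and Prdm14 is left out. The number given for the naive factors, 11 of 14, still counts Prdm14. Klf, Pim and grainyhead families have points on both sides of 0, while naive factors lie on the right.

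The listed genes of the chromosome that holds Pim2 were mostly lower. On chromosome X, 35 of 41 listed genes were lower and 6 higher, while 47.2% of the whole table was lower. Within 1 Mb of Pim2 there were 3 other listed genes, all lower. Pcsk1n, 36.4 kb away, was at 28.7 and 8.59 TPM, 3.34-fold lower. Kcnd1, a potassium channel gene 40.0 kb away, was at 7.25 and 3.55 TPM, 2.04-fold lower. Glod5, 121 kb away, had a mean of 8.65 TPM in Flag cells, against the table's floor of 0.0001 TPM in Prdm14 cells. Among the 34 lower genes of the chromosome that were off the floor, folds ran from 2.02 to 62.6 with a median of 3.02, and Pim2 had the third widest. Its Flag level was the highest of the chromosome's listed genes, ahead of one at 213 TPM. The part of the chromosome in the Pim2 difference was not tested.

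**Figure D4:**
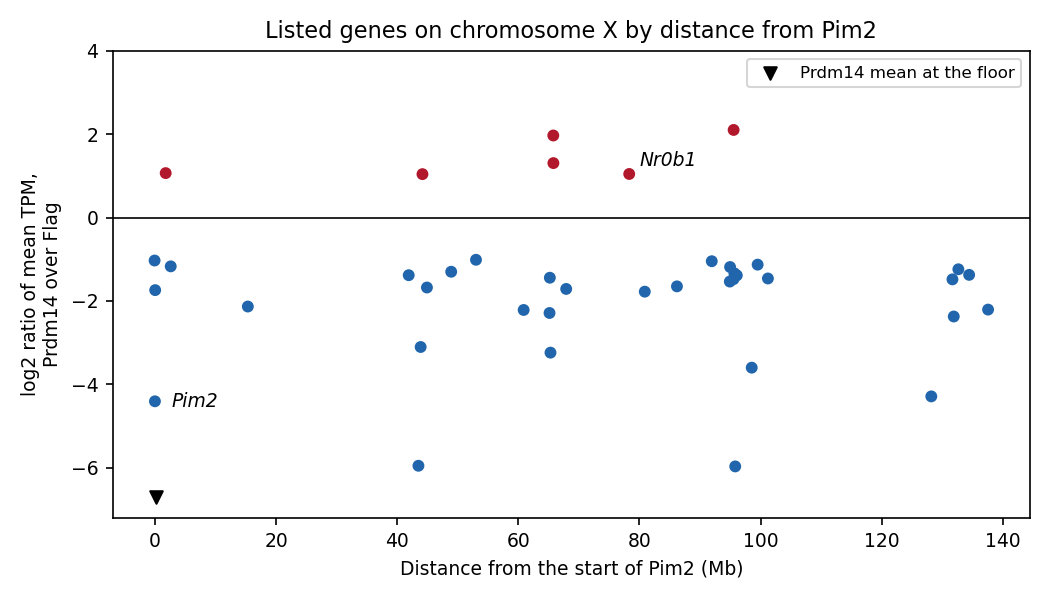
The log2 ratio of mean TPM (y, Prdm14 over Flag) of the 41 listed genes on chromosome X by distance from the start of Pim2 in Mb (x); the triangle is Glod5, whose Prdm14 mean is at the floor and whose height is arbitrary. Lower genes (blue) lie from near Pim2 to 137.6 Mb away, with none between 15.3 and 41.9 Mb or between 101.2 and 128.2 Mb. Pim2 at -4.41 is the third lowest of the circles, and Nr0b1 is one of the 6 higher genes (red).

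The other genes lay on chromosomes with a more even split. On chromosome 1, which holds Gbx2 and Tfcp2l1, 27 listed genes were higher and 20 lower. The split was 32 and 18 on chromosome 4 with Klf4, 18 and 18 on chromosome 14 with Klf5, and 25 and 21 on chromosome 17 with Pim1. On chromosome 11 with Socs3, 24 were higher and 42 lower. Within 1 Mb, Tfcp2l1 had 2 listed neighbours, both higher: Gli2, a Hedgehog pathway factor, at 16.6 and 37.2 TPM (2.24-fold), and the inhibin subunit gene Inhbb at 1.66 and 8.63 TPM (5.19-fold). Klf5 had 1, its own relative Klf12 at a distance of 556 kb. Pim1 had 1, Mdga1, at 1.22 and 5.80 TPM (4.74-fold higher). Of 3 near Socs3, Lgals3bp (9.76-fold) and Mgat5b (2.54-fold) were lower and 1 predicted gene was higher. Klf4 had none.

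The stretch of 250 bases before the RefSeq start was read for 6 of the genes, all but Klf5, for which the sequences used held none. These windows were rich in G and C, at 65.2% for Tfcp2l1, 61.6% for Gbx2, 74.0% for Klf4, 82.4% for the first start of Pim1, 62.0% for Pim2 and 71.6% for Socs3. The median was 52.4% over all 32851 windows of this length and 59.2% over the 884 windows of listed genes. A second RefSeq start of Pim1 inside the gene had 48.0%. The Socs3 window lies within the longer gene span of GENCODE M21, and the printed site is outside its exons.

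Each motif was searched on both strands. CCNCNCCC matched 5 of the 6 genes with a window, all but Pim2, beside 48.5% of all 27025 genes with a window and 74.0% of the 645 listed ones. Matches overlap each other in Klf4, Pim1 and Socs3, and Tfcp2l1 has 2 separate copies of CCACGCCC, starting 61 and 47 bases before its start. TTCNNNGAA, the STAT motif, matched only Socs3 of the 6, at 154 to 146 bases before its start, directly beside a CCNCNCCC match; 8.13% of all genes and 8.37% of listed genes held it. The Prdm14 motif GGTCTCTAA, found for 0.281% of all genes, matched none of the 6 windows. The octamer, chosen after the Pim2 sequence was seen, matched Pim2 at both 202 and 123 bases before its start and no other of the 6. It was held by 1.81% of all genes and 1.71% of listed genes with a window, 0.92% of the higher and 2.51% of the lower ones. The shares of listed higher and lower genes were 77.3% and 70.5% for CCNCNCCC and 6.13% and 10.7% for TTCNNNGAA. For GGTCTCTAA they were 0.307% and 0.627%. None of these splits was tested. A match of letters shows no binding, and the lack of one says nothing about sites outside the windows searched.

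For each gene the listed gene nearest to it in both log2 levels was found over the 2 conditions, leaving out predicted and clone genes and genes at the floor. Distances were 0.07 for Tfcp2l1 and Exoc3l (19.1 and 70.2 TPM), 0.04 for Socs3 and Radil (7.91 and 2.64 TPM) and 0.12 for Klf4 and Vwa3b (14.8 and 53.1 TPM). They were 0.14 for Pim1 and Cox6b2 (43.7 and 88.4 TPM), 0.17 for Klf5 and Gabarapl2 (77.9 and 182 TPM) and 0.21 for Gbx2 and Sfrp1 (6.08 and 37.7 TPM). Pim2 had no close match: the nearest was Trh, the thyrotropin-releasing hormone precursor, at 449 and 53.5 TPM, a distance of 1.40. Pim2 thus had the most isolated pair of levels among the 7 genes. Exoc3l, Sfrp1 and Gabarapl2 lie on chromosome 8, and the other nearest genes on chromosomes 1, 5, 6 and 7. The share of listed genes on chromosome 8 is not given here, so nothing is read from this.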

How the data were processed

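RNA was taken with Trizol and read on an MGI2000 instrument, per the labels' protocols, from 1 sample per condition. The authors deposited a single table of 886 genes with p-values, q-values, a log2 fold change and a mean TPM for both conditions. Per the submitters' processing notes reads were processed with Bowtie 0.12.2 and build mm10; the sources used here do not give the TPM program, the counting or the test. The deposited log2 fold change equals the log2 ratio of both means to within 4.09e-11. The number of genes tested, 20309, is the one at which the q-values take the form of a Benjamini-Hochberg adjustment (whole ranks to within 0.01 in 830 genes), a search checked on simulated data.

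All 886 IDs matched a symbol of GENCODE M21, whose build is the same. Ratios, counts, ranks and distances were computed with pandas 2.3.3, numpy 2.4.6 and matplotlib 3.10.9 in Python 3.11.15. No test was run. Genes, lists and motifs were chosen with earlier results of these data known. The rule named the 7 genes, every listed gene of 9 lists, Prdm14, Gadd45g and the nearest listed gene to each; neighbours by position, with their overlapping genes, were chosen after the values were seen. Of the list genes, Klf18 matched no symbol. Alternatives changed the pseudocount, the fold, q and TPM thresholds and left out predicted genes.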

Additional observations from a re-analysis of the deposited data

How the results depend on the processing

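No paired analysis was possible because the table holds 1 mean per condition, and no replicate could be left out. The median log2 ratio of the 7 genes, 1.10, was 1.08 with a pseudocount of 1 TPM. Gbx2 went from 2.52 to 2.33 and Socs3 from -1.61 to -1.31 with 1 TPM added, and no direction changed with 1 or 0.1 TPM. At an absolute log2 ratio of at least 2, 1 of the 5 higher and 1 of the 2 lower genes remained (Gbx2 and Pim2). Over all lists, 3 of 16 higher and 1 of 4 lower genes remained. Prdm14 itself, which the cells were made to express, is counted in both the 16 and the 3. Tfcp2l1, at 1.98, just misses that threshold. Of the lower genes, 1 of the 7 (Pim2) and 2 over all lists were left at a q of at most 0.001, where Socs3 has 0.00118 in the authors' deposited table. The same counts, 1 and 2, were left at a larger mean of at least 10 TPM. These thresholds can only remove genes. Counts of higher genes among the 7 and over all lists together stayed within 1.5 times under the q and TPM thresholds, as did all counts without predicted genes. Stat5b, the 1 listed pathway component, was lost under both thresholds and at an absolute log2 ratio of at least 2. Depth is unknown, so the precision of low values such as Socs3 at 2.58 TPM cannot be given.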
